A study of Mus musculus with 4 samples.

Results

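The genes described here are 38 markers of tissue that borders the hippocampus or runs through it as vessels, out of 22609 gene symbols counted. They fall into 16 genes of leptomeningeal fibroblasts, 5 of pericytes, 6 of vascular smooth muscle and 11 of the choroid plexus. The genes were chosen by name as markers of these tissues, by someone who knew their CPM (read counts scaled to library size, here with TMM factors) in all 4 libraries and knew that the second knockout library stood apart in several of them. The levels in that library are therefore a description of why the genes were looked at, and carry no test.

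The libraries were made from total RNA of mouse hippocampus. All mice were female, had their ovaries removed a week before surgery, underwent global cerebral ischemia by clipping both common carotid arteries for 20 min under isoflurane, and were sampled after 24 h of reperfusion. The 2 FLOX-control libraries came from mice with the floxed Cyp19a1 gene (aromatase, which makes estrogen from androgens), and the 2 GFAP-ARO-KO libraries from mice in which Cre driven by the GFAP promoter deletes that gene, so the deletion is meant for astrocytes and not for the cell types marked here. No library came from mice without ischemia, and the age, strain and number of animals behind each library are not stated in the labels. P-values therefore measure the spread between these libraries, which may be technical in part.

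Gene reads summed to between 27930696 and 34878375 per library, lowest in the second knockout. Cyp19a1 gave 3 and 2 reads in the control libraries and 1 and 9 in the knockout libraries, which is too few to check the genotype labels. Markers of hippocampal neurons were present in every library: Camk2a ranged from 4662 to 5650 CPM, the dentate gene Prox1 from 39.2 to 64.6 CPM and Wfs1, a gene of the CA1 field, from 117 to 190 CPM. A count of 0 in a library allows a level of up to 0.0854 to 0.106 CPM, taking 3 reads as its upper limit, which covers counting error only.

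The hippocampus is folded against the brain surface and against the lateral ventricle, so its dissection can carry pia and arachnoid along the hippocampal fissure, the arteries that enter there, and the choroid plexus that hangs in the ventricle. Leptomeningeal fibroblasts secrete collagen-binding proteoglycans and retinoic acid and carry organic anion and solute transporters. Arteries and arterioles are wrapped in contractile smooth muscle, whereas capillaries are covered by pericytes, which share the receptor PDGFRB but hold little of the contractile apparatus. The choroid plexus epithelium secretes cerebrospinal fluid and transthyretin. In RNA from whole tissue, more cells of a type and more RNA per cell cannot be told apart.

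The 4 groups of genes differed in which library held their highest level. In the second knockout library all 6 smooth muscle genes and all 16 leptomeningeal genes were at their highest, against 2 of 5 pericyte genes and 4 of 11 choroid plexus genes. Of all genes with enough reads to be tested, 31.1% were highest in that library. The pericyte and choroid plexus counts lie near that share, and the genes were picked with that library's levels known. Summed over the smooth muscle genes, the level was 24.3 and 22.4 CPM in the control libraries, 46.6 CPM in the first knockout and 280.3 CPM in the second. The leptomeningeal sum was 154.7 and 181 CPM in the control libraries, 163 CPM in the first knockout and 450.5 CPM in the second. The first knockout library thus lay above both controls for the smooth muscle sum and between them for the leptomeningeal sum. The pericyte sum was 110.5 and 125 CPM in the control libraries, 114 and 190 CPM in the knockout libraries. The choroid plexus sum was 46.1 and 45.5 CPM in the control libraries, 55.9 and 70.5 CPM in the knockout libraries. The pericyte sum leans most on Vtn. The choroid plexus sum leans most on Kl, at 26.0 and 30.3 CPM in the control libraries and 32.9 and 31.2 CPM in the knockout libraries. Kl changed little, and most of the rise in that sum was that of Ttr. The values of Vtn and Ttr are given with their groups.

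**Figure D1:**
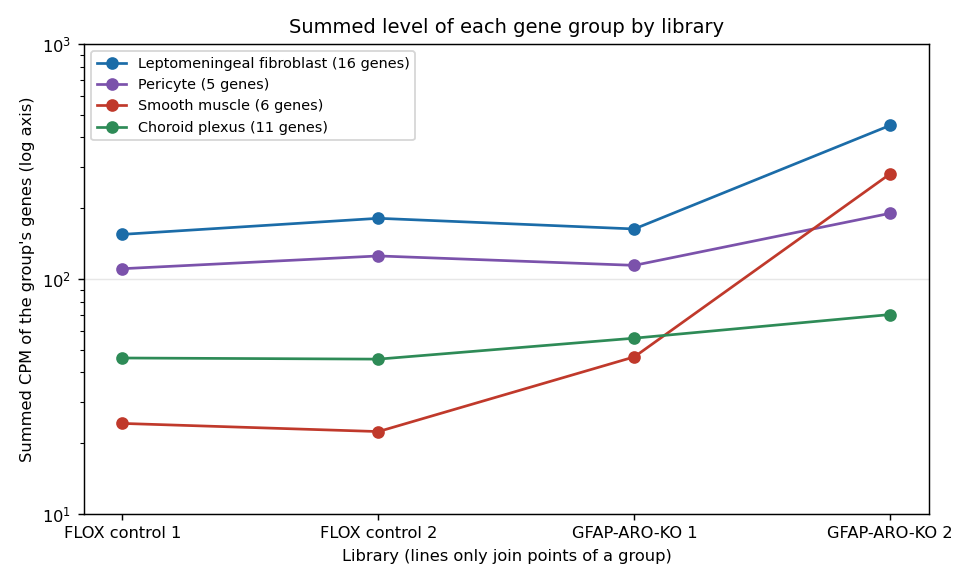
Summed CPM of the genes in each of the 4 groups (log axis) in each of the 4 libraries; each point is 1 library, and the lines only join the points of a group. The smooth muscle sum runs from 22.4 CPM in a control to 280.3 CPM in the second knockout library, while the choroid plexus sum stays between 45.5 and 70.5 CPM.

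Of the 38 genes, 34 had enough reads to be tested. Of these, 16 were at least 2-fold above the highest other library in the second knockout, where 1.31% of all 15011 tested genes were. These 16 were 9 leptomeningeal genes, the 6 smooth muscle genes and Ttr. The same fold was reached by 0 of the 34 genes in the first control (0.173% of tested genes), 0 in the second control (0.207%) and 0 in the first knockout (0.187%). Closest above the line were Ttr, at 2.31 times the highest other library, and Fbln5, at 2.37 times, and closest below it was Vtn, at 1.82 times. The genes were picked on this very comparison, so nothing is read from the count of 16.

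**Figure D2:**
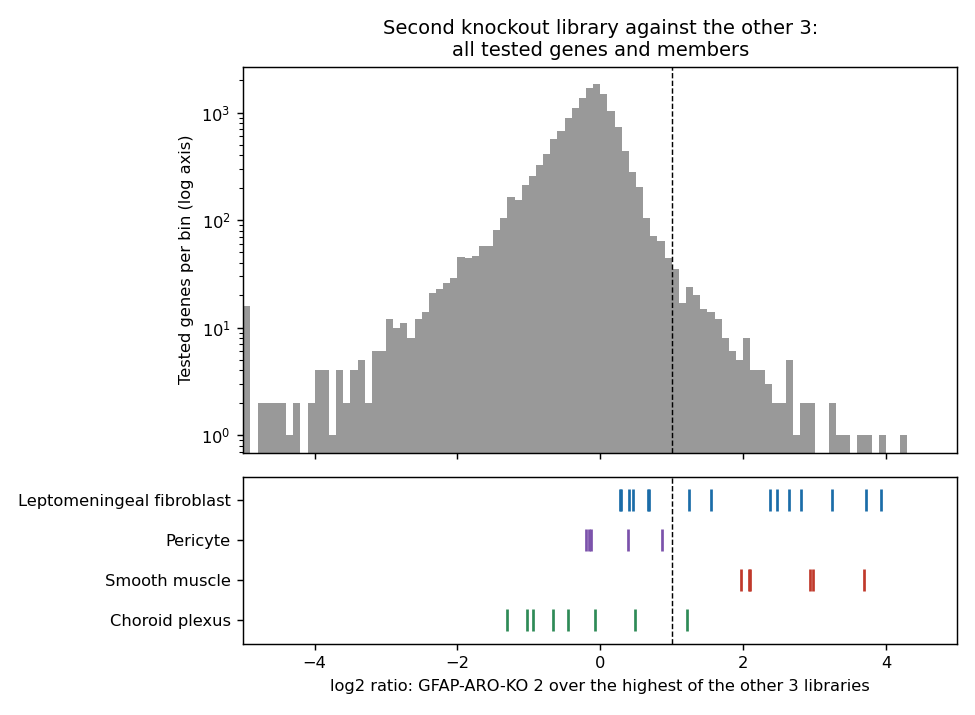
Upper panel: histogram of the log2 ratio of the CPM in the second knockout library to the highest CPM among the other 3 libraries, for 15011 tested genes (bins at both ends also hold values beyond them; log axis of genes per bin). Lower panel: the same ratio for each of the 34 tested member genes, 1 tick per gene, by group; the dashed line marks 2-fold, which all 6 smooth muscle genes and no pericyte gene exceed.

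Between genotypes, with all 4 libraries, 5 of the 34 tested genes were higher in the knockout at an adjusted p under 0.05 (edgeR's quasi-likelihood test with Benjamini-Hochberg adjustment over all tested genes), where 9.39% of all tested genes were called higher. By edgeR 0 of the 34 were lower, where 11.0% of all tested genes were called lower; 2 were lower at an unadjusted p under 0.05, and DESeq2 and limma-voom each called 0. The 5 were Islr, Fbln1, Pdgfrb, Ttr and Clic6. The median log2 fold change was 0.89 over the 34 genes and -0.00081 over all tested genes. All of the 5 calls were lost without the first control library and also without the second, each of which leaves a single control (0 higher in both cases). Without the first knockout library the median log2 fold change of the members was 1.16, over 35 then tested. That fit sets the second knockout library alone against the controls. It is the comparison the genes were picked on, so nothing is read from it.

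Without the second knockout library, 8 of the 34 genes were called higher, against 8.50% of the 15289 genes then tested, and 1 was called lower, against 9.58%. The 8 were Acta2, Tagln, Myh11, Des, Mgp, Islr, Ttr and Clic6, and the 1 that was lower was Bgn. In that fit the spread comes from the controls alone and the lone knockout library is assumed to vary like them. The median log2 fold change of the 34 genes was then 0.06. By group it was 1.19 for the smooth muscle genes, -0.07 for the leptomeningeal genes, -0.10 for the pericyte genes and 0.06 for the choroid plexus genes.

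**Figure D3:**
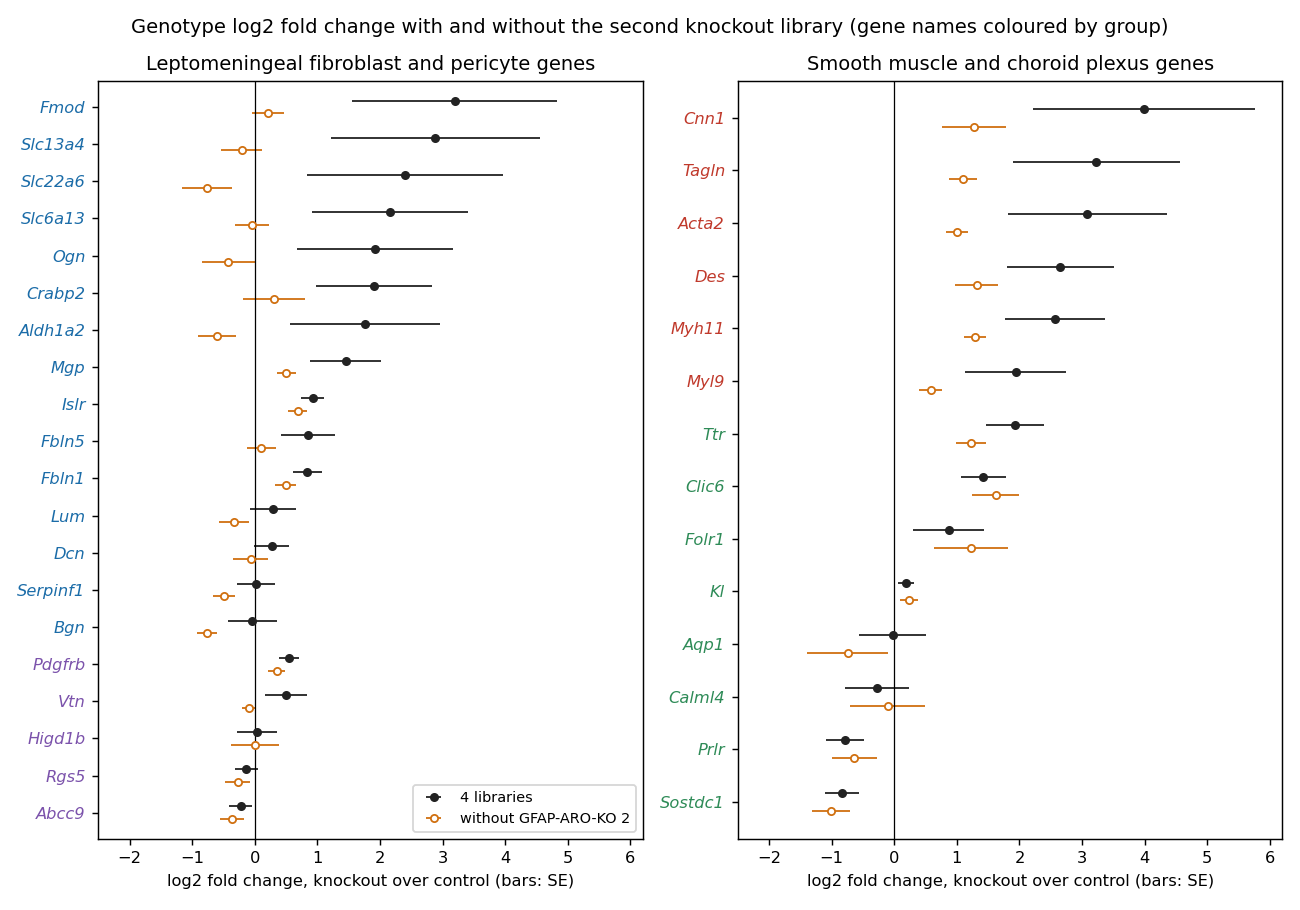
Log2 fold change of knockout over control with its SE (edgeR) for each of the 34 tested genes, from all 4 libraries (filled) and without the second knockout library (open). Without that library Fmod moves from 3.19 to 0.21 and Acta2 from 3.09 to 1.00, and Clic6 from 1.42 to 1.62.

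Smooth muscle genes encode the contractile apparatus of the artery wall. Acta2 (chr19:34315580-34329826, minus strand, mm9), the smooth muscle actin, was at 8.18 and 6.82 CPM in the control libraries and at 14.9 and 114 CPM in the knockout libraries. Both knockout libraries were above both controls, and the second was 7.63 times the first. Its log2 fold change was 3.09 ± 1.26 (SE) and did not pass (edgeR adjusted p = 0.201). Without the second knockout library it was 1.00 ± 0.18 and passed (edgeR adjusted p = 0.00721). Per kilobase of exon, Acta2 stood at 4.59 and 3.83 RPKM (CPM divided by exonic length) in the control libraries and 63.8 RPKM in the second knockout.

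Tagln (chr9:45737711-45744141, minus strand, mm9), which encodes transgelin, an actin-binding protein of smooth muscle, was at 4.03 and 3.12 CPM in the control libraries and 7.63 and 60.3 CPM in the knockout libraries. The reads of Acta2 and Tagln kept nearly the same ratio in every library, 2.03 and 2.19 in the control libraries and 1.95 and 1.89 in the knockout libraries. Tagln had a log2 fold change of 3.22 ± 1.33 (edgeR adjusted p = 0.202), and of 1.10 ± 0.22 without the second knockout library (edgeR adjusted p = 0.0131). Cnn1 (chr9:21903725-21914074, plus strand, mm9), which encodes calponin, a regulator of contraction, gave 11 and 14 reads in the control libraries and 32 and 333 in the knockout libraries, or 0.329, 0.428, 0.911 and 11.8 CPM. Its second knockout value was 13.0 times the highest other, the largest such ratio in this group, and its log2 fold change of 3.99 ± 1.78 did not pass (edgeR adjusted p = 0.204).

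Myh11, the smooth muscle myosin heavy chain, was at 4.87 and 4.74 CPM in the control libraries and 11.7 and 45.9 CPM in the knockout libraries. Its ratio to Acta2 moved, with Acta2 reads 1.68 and 1.44 times those of Myh11 in the controls, 1.28 times in the first knockout and 2.48 times in the second. Des, the intermediate filament desmin, was at 1.10 and 0.826 CPM in the control libraries and 2.39 and 10.2 CPM in the knockout libraries. Myl9, a myosin light chain, was at 5.73 and 6.45 CPM in the control libraries and 9.06 and 38.5 CPM in the knockout libraries. All 6 genes thus had both knockouts above both controls, a separation in this direction that 14 of the 34 members and 32% of all tested genes showed. Without the second knockout library Myh11 (log2 fold change 1.29 ± 0.18, edgeR adjusted p = 0.00295) and Des (1.31 ± 0.34, edgeR adjusted p = 0.0313) passed, while Myl9 (0.58 ± 0.19, edgeR adjusted p = 0.0639) and Cnn1 (1.27 ± 0.51, edgeR adjusted p = 0.116) did not. With all 4 libraries and the settings used throughout, edgeR called 0 of the 6, with 2 at an unadjusted p under 0.05. Other edgeR settings did call some: without robust estimation 4 were higher (Acta2, Tagln, Myh11 and Des) and with legacy estimation 1 (Des). DESeq2 called 4 (Cnn1, Des, Myh11 and Tagln) and limma-voom 0. Without the first knockout library, the comparison the genes were picked on, the median log2 fold change of the 6 was 3.66.

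Genes of contractile smooth muscle are known for CArG boxes near their start, the 10-base element bound by serum response factor. The stretches below show the boxes found before the start of Acta2 and Myl9, which shared the high level in the second knockout, and of Slc13a4, a leptomeningeal gene that shared it too. Boxes are in capitals, in promoters of RefSeq on GRCm38.p6, read 5′ to 3′ on the gene's strand. At most 1 of the 6 central bases of a box was allowed to be G or C. The Acta2 stretch is chr19:34255374-34255482 (minus strand), that of Myl9 is chr2:156775278-156775399 (plus strand) and that of Slc13a4 is chr6:35308262-35308321 (minus strand).
Acta2: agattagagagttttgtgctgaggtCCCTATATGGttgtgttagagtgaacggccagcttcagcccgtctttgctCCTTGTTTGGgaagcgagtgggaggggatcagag
Myl9: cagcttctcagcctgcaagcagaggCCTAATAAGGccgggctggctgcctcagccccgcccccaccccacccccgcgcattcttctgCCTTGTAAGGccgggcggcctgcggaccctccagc
Slc13a4: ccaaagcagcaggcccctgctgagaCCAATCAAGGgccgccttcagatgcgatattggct

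Acta2 and Myl9 each held 2 boxes, at positions -84 and -34 from the start of Acta2 and -161 and -99 from that of Myl9. The search covered windows of 250 bases before to 50 bases after the start and found both strands at once, since the element reads the same on either. Such a box was in 9.98% of all 32851 windows, and the strict element, with no G or C in its centre, in 1.63%. Of the 38 genes, 25 had a window, and 5 of these held a box: Acta2, Myl9, Slc13a4, Serpinf1 and Prlr. Only Myl9 held the strict element. Some of the 25 had several windows, 34 in all, so the count per gene is not a like measure to the share of windows. Of the smooth muscle genes with a window, Cnn1 and Des held none, and Tagln and Myh11 had no window. The level of Prlr was at its lowest in the second knockout library.

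Further smooth muscle genes, from a list of 23 that are not among the 38, were mixed. Of 21 tested, 3 were higher and 2 lower in the knockout, with a median log2 fold change of 0.33. In the second knockout 4 were at least 2-fold above the highest other library. The shares for this list and those below are from all 4 libraries. Of all tested genes, 9.39% were called higher, 11.0% were called lower and 1.31% were at least 2-fold above. The counts of 3 and 2 lie near these shares. Fits without a library tested other numbers of genes and had other shares, so their counts are not read against these. Without the first knockout, the second stands alone against the controls, the comparison the members were picked on. Crip1, a LIM protein, rose by 0.96 (edgeR adjusted p = 0.0141) and Itga8, an integrin of smooth muscle and other contractile cells, rose by 0.68 (edgeR adjusted p = 0.0182). Ppp1r14a, which encodes the myosin phosphatase inhibitor CPI-17, fell by 1.54 (edgeR adjusted p = 0.00628), with 165 and 164 reads in the control libraries and 56 and 52 in the knockout libraries. Pdlim7, a cytoskeletal adaptor, fell by 0.46 (edgeR adjusted p = 0.0255). Without either control library the higher calls were lost, and not both lower calls held. Over 23 genes then tested, the median was 0.80 without the first knockout library. The median was 0.09 without the second knockout library. The 4 at least 2-fold above were Lmod1, Mustn1, Pln and Tpm2, named after their values were seen. Actg2, a further actin gene, had too few reads to be tested, with 0 and 0 in the control libraries and 3 and 93 in the knockout libraries. Lmod1, leiomodin, which nucleates actin filaments in smooth muscle, gave 12 and 13 reads in the control libraries and 58 and 219 in the knockout libraries, so both knockout libraries were above both controls. It did not pass (log2 fold change 3.56 ± 1.04, edgeR adjusted p = 0.0687) and passed without the second knockout library (2.13 ± 0.43, edgeR adjusted p = 0.0128). Of 15 tested genes for serum response factor, its cofactors, and the TGF-beta, PDGF and Notch systems that act on mural cells, by edgeR, DESeq2 and limma-voom 0 were higher (1 at an unadjusted p under 0.05) and 1 was lower. That was Pdgfc, a ligand of the PDGF family, which fell by 0.79 (edgeR adjusted p = 0.0306), and which did not pass without either control or without the second knockout library (0.0595). Without that library Smad3, a mediator of TGF-beta signals, was called higher (edgeR adjusted p = 0.00995) and Jag1, a Notch ligand, lower (edgeR adjusted p = 0.0426), and without the first knockout library 2 of the list were higher. Srf gave 2353 and 2163 reads in the control libraries and 2665 and 1986 in the knockout libraries. Its cofactor gene Myocd, in both this list and the smooth muscle list, had too few reads to be tested. It gave 5 and 1 reads in the control libraries and 8 and 19 in the knockout libraries, with both knockouts above both controls.

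**Figure D4:**
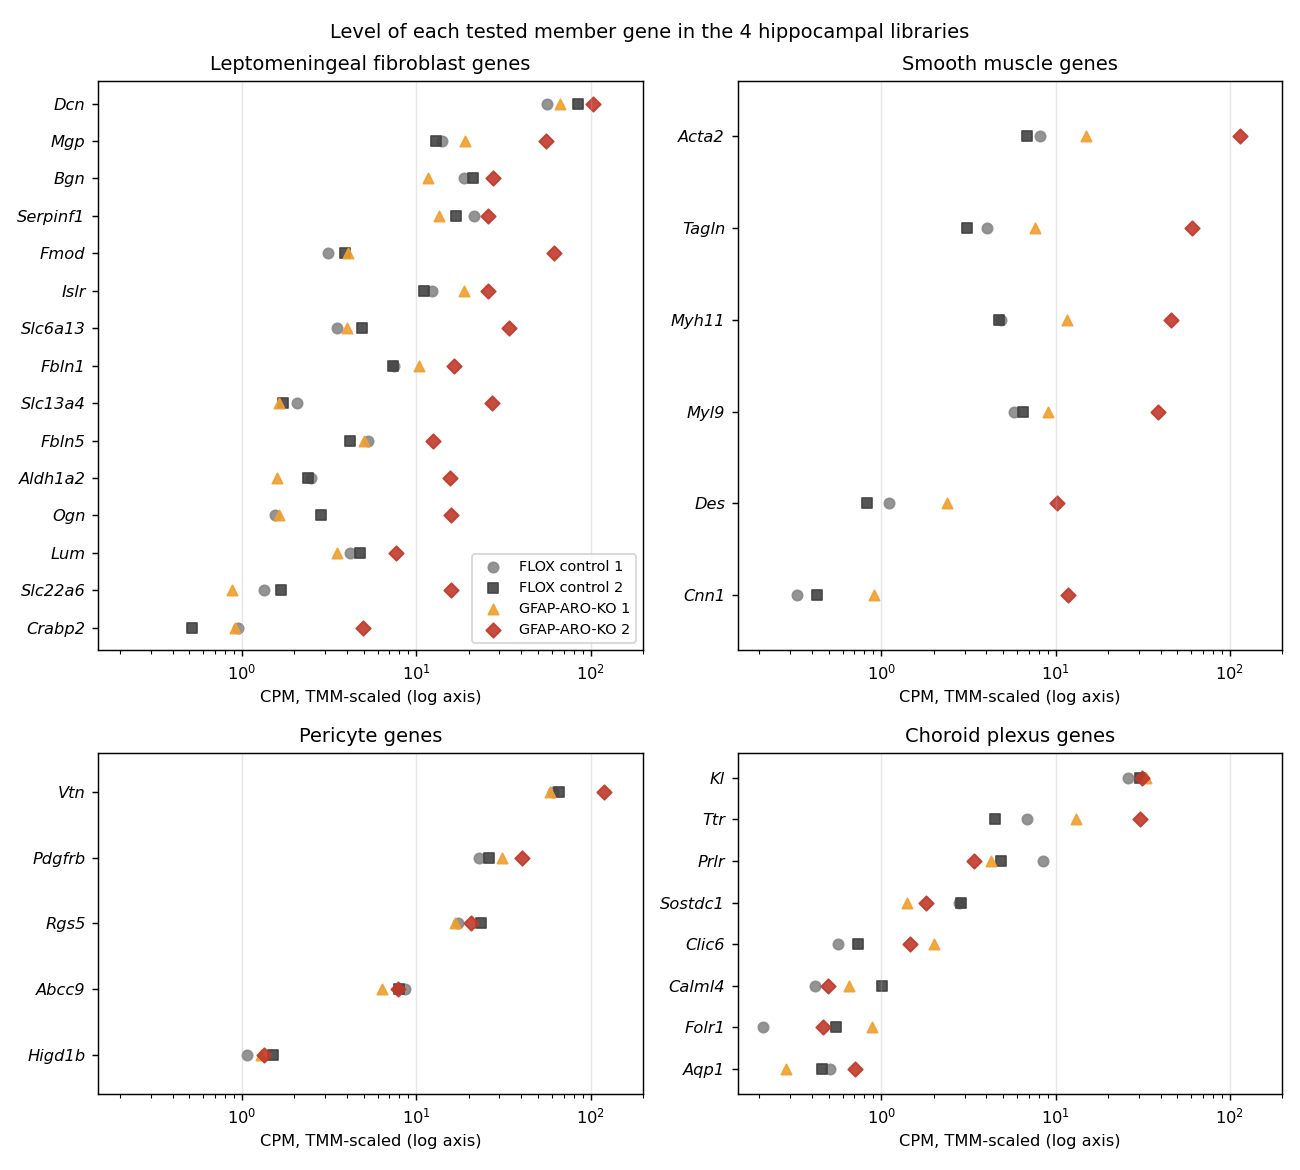
CPM (log axis) of each of the 34 tested genes in the 4 libraries, 1 panel per group; each symbol is 1 library. The smooth muscle genes have the first knockout library above both controls and the second far above, Fmod and Slc13a4 stand out in the second knockout library alone, and the genotypes overlap for Rgs5 and Higd1b.

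The 5 pericyte genes differed among themselves: Rgs5, Abcc9 and Higd1b were not highest in the second knockout library, while Pdgfrb and Vtn were. Rgs5, a regulator of G protein signaling, was at 17.3 and 23.6 CPM in the control libraries and 16.8 and 20.5 CPM in the knockout libraries. Abcc9, the sulfonylurea receptor subunit of a potassium channel, was at 8.57 and 7.92 CPM in the control libraries and 6.38 and 7.83 CPM in the knockout libraries. Higd1b, a small mitochondrial protein gene, was at 1.08 and 1.499 CPM in the control libraries and 1.28 and 1.35 CPM in the knockout libraries. The values of Rgs5 and Higd1b overlapped between genotypes, those of Abcc9 lay just below the controls, and none of the 3 passed (edgeR adjusted p from 0.420 to 0.960). Acta2 reads were 0.473 and 0.289 times those of Rgs5 in the controls, 0.888 times in the first knockout and 5.54 times in the second.

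Pdgfrb, the receptor that recruits mural cells to vessels, was at 23.0 and 26.3 CPM in the control libraries and 31.1 and 40.7 CPM in the knockout libraries. It rose by 0.54 ± 0.16 on the log2 scale (edgeR adjusted p = 0.0496), at the edge of the threshold. The call was lost without the first control (edgeR adjusted p = 0.249), the second control (0.134) or the second knockout library (0.108), the last with a log2 fold change of 0.35, and in other fits: unfiltered (0.0555), without robust estimation (0.0532) and with limma-voom (0.0607). Pdgfrb is also made by fibroblasts and smooth muscle, so it is not a marker of pericytes alone. Vtn, which encodes the adhesion protein vitronectin, was at 60.6 and 65.9 CPM in the control libraries, 58.7 CPM in the first knockout and 119.9 CPM in the second. Its log2 fold change of 0.49 ± 0.33 did not pass (edgeR adjusted p = 0.344) and was -0.10 without the second knockout library.

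Of 18 further pericyte genes tested, 1 was higher and 1 lower, with a median log2 fold change of 0.03, and 2 were at least 2-fold above the highest other library in the second knockout (Anpep and Zic1, of which Zic1 is also in the leptomeningeal list). Slc38a11, a putative amino acid transporter gene, rose by 1.52 (edgeR adjusted p = 0.0403), and Atp13a5, a P-type ATPase gene of brain pericytes, fell by 0.76 (edgeR adjusted p = 0.0373). Both calls were lost without either control library. The median was 0.13 without the first knockout library and -0.08 without the second. Cspg4, the NG2 proteoglycan, gave 613 and 766 reads in the control libraries and 789 and 526 in the knockout libraries (edgeR adjusted p = 0.954).

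Among the leptomeningeal members, the transporters and retinoid genes were all at least 2-fold above the other libraries in the second knockout, the comparison they were picked on. The first knockout lay between the controls or below them for every one of these genes. Slc13a4 (chr6:35217957-35258131, minus strand, mm9), a sodium-coupled sulfate transporter, gave 69 and 56 reads in the controls, 57 in the first knockout and 767 in the second, or 2.06, 1.71, 1.62 and 27.2 CPM. The first knockout lay below both controls, so the groups overlapped, and the log2 fold change of 2.88 ± 1.67 did not pass (edgeR adjusted p = 0.322). Without the second knockout library it was -0.21. Slc22a6, the organic anion transporter OAT1, was at 1.34 and 1.68 CPM in the control libraries, 0.883 CPM in the first knockout and 15.9 CPM in the second (edgeR adjusted p = 0.359). The ratio of Slc13a4 reads to Slc22a6 reads was 1.53 and 1.02 in the control libraries and 1.84 and 1.71 in the knockout libraries.

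Slc6a13, a transporter of GABA and taurine, was at 3.49 and 4.86 CPM in the control libraries, 4.02 CPM in the first knockout and 34.2 CPM in the second. Slc47a1, a transporter that extrudes organic cations, had too few reads to be tested, with 5 and 1 in the controls, 0 in the first knockout and 22 in the second. Aldh1a2, the enzyme that makes retinoic acid in the meninges, was at 2.48 and 2.39 CPM in the control libraries, 1.59 CPM in the first knockout and 15.5 CPM in the second. Crabp2, which carries retinoic acid to its nuclear receptors, was at 0.956 and 0.520 CPM in the control libraries, 0.911 CPM in the first knockout and 4.96 CPM in the second. None of the 3 tested among these passed (edgeR adjusted p from 0.203 to 0.373). Of 13 other genes of retinoid handling, which many brain cells use, 2 were higher and 2 lower (median log2 fold change 0.29). Stra6, the receptor for retinol-binding protein, fell by 1.54 (edgeR adjusted p = 0.00288) and Aldh1a3, a further retinoic acid synthase, fell by 1.57 (edgeR adjusted p = 0.0140). Rdh10, a retinol dehydrogenase, rose by 0.63 (edgeR adjusted p = 0.0373) and Rxra, a nuclear receptor, rose by 0.42 (edgeR adjusted p = 0.0414). Without either control library the higher calls were lost, and not both lower calls held. The median was 0.36 without the first knockout library and 0.03 without the second.

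The small leucine-rich proteoglycans, which bind collagen fibrils, went apart from each other. Fmod (fibromodulin, chr1:135933831-135944854, plus strand, mm9) was at 3.14 and 3.92 CPM in the control libraries, 4.04 CPM in the first knockout and 61.4 CPM in the second. That is 15.2 times the highest other library, the largest ratio among the 34 tested genes, and its log2 fold change of 3.19 ± 1.64 did not pass (edgeR adjusted p = 0.278). Ogn (osteoglycin) was at 1.55 and 2.84 CPM in the control libraries, 1.62 CPM in the first knockout and 15.7 CPM in the second. Dcn (decorin, chr10:96942245-96980777, plus strand, mm9), the highest of the 5 per length (28.9 RPKM in the first control), was at 56.0 and 84.7 CPM in the control libraries and 66.6 and 103 CPM in the knockout libraries. Its neighbor Lum (lumican, chr10:97028135-97035337, plus strand, mm9) was at 4.15 and 4.77 CPM in the control libraries and 3.50 and 7.66 CPM in the knockout libraries.

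The second knockout library was thus 1.22 times the highest other library for Dcn and 1.60 times for Lum. Dcn reads were 13.5 and 17.8 times those of Lum in the control libraries and 19.0 and 13.5 times in the knockout libraries. Fmod reads were 0.755 and 0.821 times those of Lum in the controls, 1.15 times in the first knockout and 8.02 times in the second. Bgn (biglycan) was at 18.9 and 21.0 CPM in the control libraries, 11.7 CPM in the first knockout and 27.7 CPM in the second. Bgn did not pass with all 4 libraries (log2 fold change -0.04 ± 0.39, edgeR adjusted p = 0.959) and was lower without the second knockout library, with a log2 fold change of -0.76 ± 0.15 (edgeR adjusted p = 0.0128). Dcn had a log2 fold change of 0.27 ± 0.28 (edgeR adjusted p = 0.527), which was -0.07 without the second knockout library.

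Islr and Fbln1 were the leptomeningeal genes called higher in the knockout. Islr (chr9:58004080-58006949, minus strand, mm9), a cell surface protein with leucine-rich repeats that marks mesenchymal cells, was at 12.4 and 11.1 CPM in the control libraries and 18.7 and 25.8 CPM in the knockout libraries, with no overlap. It rose by 0.92 ± 0.19 on the log2 scale (edgeR adjusted p = 0.0155), or 1.89-fold, and by 0.69 ± 0.15 without the second knockout library (edgeR adjusted p = 0.0175). The call was lost without the first control (edgeR adjusted p = 0.0608) or the second (0.101). Fbln1 (fibulin 1, a matrix glycoprotein; chr15:85036379-85116965, plus strand, mm9) was at 7.44 and 7.34 CPM in the control libraries and 10.3 and 16.4 CPM in the knockout libraries. It rose by 0.84 ± 0.24 (edgeR adjusted p = 0.0449), and did not pass without the first control (0.171), the second control (0.185) or the second knockout library (0.0812, log2 fold change 0.49), and with limma-voom (0.0626).

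Mgp, matrix Gla protein, which keeps vessel walls from calcifying, was at 14.01 and 13.03 CPM in the control libraries and 19.1 and 55.7 CPM in the knockout libraries. It did not pass with all 4 libraries (log2 fold change 1.45 ± 0.57, edgeR adjusted p = 0.155) and passed without the second knockout library (0.51 ± 0.14, edgeR adjusted p = 0.0441). Per kilobase of exon Mgp was the highest of the 38 genes in the second knockout, at 93.1 RPKM, ahead of Acta2 at 63.8 RPKM, Vtn at 59.04 RPKM and Dcn at 53.3 RPKM. In the controls the order was different, with Vtn at 29.8 and 32.5 RPKM and Dcn at 28.9 and 43.7 RPKM. Fbln5 (fibulin 5), needed for elastic fibers, was at 5.26 and 4.19 CPM in the control libraries and 5.04 and 12.4 CPM in the knockout libraries. Serpinf1, which encodes the antiangiogenic factor PEDF, was at 21.4 and 17.01 CPM in the control libraries and 13.5 and 25.8 CPM in the knockout libraries. Both overlapped between genotypes and did not pass (edgeR adjusted p of 0.205 and 0.968).

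**Figure D5:**
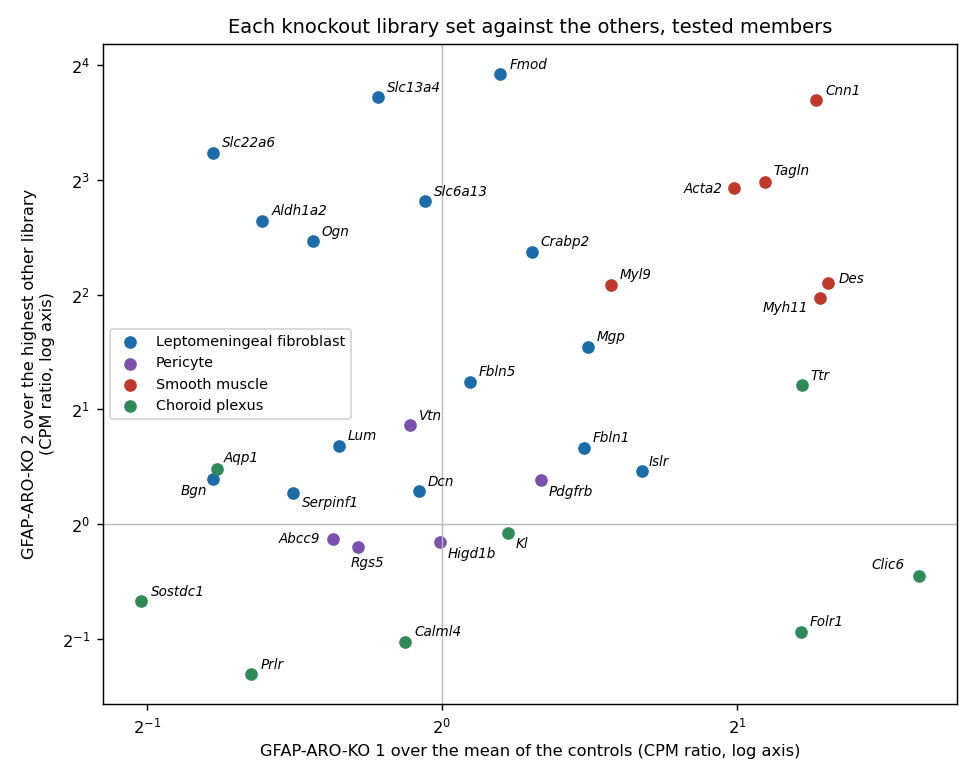
For each of the 34 tested genes, the CPM ratio of the first knockout library to the mean of the controls (x axis, log) against that of the second knockout library to the highest other library (y axis, log), colored by group. The smooth muscle genes are high on both axes, with first knockout ratios from 1.49 to 2.48, whereas Slc22a6, Aldh1a2 and Ogn are high on the y axis with x values of 0.583, 0.656 and 0.738.

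Further leptomeningeal genes, from a list of 32, of which 28 were tested, were split. In the second knockout library 14 of the 28 were at least 2-fold above the highest other library. Among them was Igf2, with 864 and 1210 reads in the controls, 972 in the first knockout and 6336 in the second. Another was Ptgds, a prostaglandin D synthase gene, with 14672, 11504, 10698 and 50905 reads in the same order. Igf2 is also in the choroid plexus list and Zic1 in the pericyte list. Igf2, Ptgds and Col1a2 were named after their values were seen. Col1a2, a type I collagen chain, gave 194 and 214 reads in the controls, 178 in the first knockout and 1125 in the second. The transporter genes of the list differed in that library. Slc22a8 was at 1.86 times the highest other library, and Slc22a2, with too few reads to be tested, at 14.7 times. The retinoid carrier gene Crabp1 was at 0.734 times and was highest in a control. Of the 28, 1 was higher and 3 were lower between genotypes. Osr1, a transcription factor gene, rose by 1.47 (edgeR adjusted p = 0.0308, lost without either control). Alpl, alkaline phosphatase, fell by 1.39 (edgeR adjusted p = 0.00571), from 242 and 230 reads to 89 and 83, and Adamtsl3, a matrix protein gene, fell by 1.96 (edgeR adjusted p = 0.00723). The median log2 fold change was 0.70, and it was -0.29 without the second knockout library, when 1 was higher and 7 lower. Over 31 genes then tested, the median was 1.56 without the first knockout library.

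Choroid plexus genes did not move as a set. Ttr, transthyretin, the carrier of thyroxine and retinol made in bulk by the plexus, gave 229 and 146 reads in the control libraries and 462 and 858 in the knockout libraries, or 6.84, 4.47, 13.2 and 30.4 CPM. Both knockouts were above both controls, and Ttr rose by 1.93 ± 0.46 on the log2 scale (edgeR adjusted p = 0.0416), or 3.81-fold. Without the second knockout library it rose by 1.23 ± 0.24 (edgeR adjusted p = 0.0148). The call was lost without the first control (edgeR adjusted p = 0.201), without the second (0.292) and with no filter on low counts (0.0532). Clic6, an intracellular chloride channel protein of the plexus, gave 19 and 24 reads in the control libraries and 70 and 41 in the knockout libraries. It rose by 1.42 ± 0.36 (edgeR adjusted p = 0.0310) and was highest in the first knockout, unlike Ttr. This call did not hold without either control (0.190 and 0.129) or without the first knockout (0.0698), nor with DESeq2 (0.0878).

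The other defining genes of the plexus were low or did not follow Ttr. Folr1, the folate receptor of the plexus, gave 7 and 18 reads in the control libraries and 31 and 13 in the knockout libraries (edgeR adjusted p = 0.311). Otx2, the transcription factor of the plexus epithelium, gave 5 or 6 reads in every library, Slc4a5, a bicarbonate transporter, 1 to 8 reads and Tmem72, a membrane protein of the plexus, 1 to 5 reads, all too few to be tested. Aqp1, the water channel of the plexus, gave 10 to 20 reads and Calml4, a calmodulin-like protein gene, 14 to 33 reads, with overlapping groups. Kl, which encodes klotho and is also expressed by neurons, was at 26.0 and 30.3 CPM in the control libraries and 32.9 and 31.2 CPM in the knockout libraries (log2 fold change 0.19 ± 0.13, edgeR adjusted p = 0.324). Ttr reads were 0.263 and 0.147 times those of Kl in the controls, 0.400 times in the first knockout and 0.976 times in the second.

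Prlr and Sostdc1 had both knockouts below both controls and did not pass. Prlr, the prolactin receptor, was at 8.42 and 4.86 CPM in the control libraries and 4.24 and 3.40 CPM in the knockout libraries (log2 fold change -0.79 ± 0.30, edgeR adjusted p = 0.103). Sostdc1, a secreted antagonist of BMP and Wnt signaling, was at 2.78 and 2.88 CPM in the control libraries and 1.40 and 1.81 CPM in the knockout libraries (log2 fold change -0.83 ± 0.27, edgeR adjusted p = 0.0639). These 2 and Abcc9 were the only tested members with that separation, which 32.8% of all tested genes showed.

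Of 26 further choroid plexus genes tested, 5 were higher and 3 lower (median log2 fold change 0.36). In the second knockout 5 were at least 2-fold above the highest other library, among them Igf2 of the leptomeningeal list. Kcnj13, named after its values were seen, had too few reads to be tested. It gave 5 and 7 reads in the controls, 6 in the first knockout and 69 in the second. Cldn3, Krt8, Krt18, Tmem27 and Ttc29, also too low to be tested, were highest in another library. Kcne2, a potassium channel subunit of the plexus, gave 2 and 1 reads in the control libraries and 18 and 17 in the knockout libraries (edgeR adjusted p = 0.0104), and Pcolce2, a collagen processing enhancer, rose by 1.51 (edgeR adjusted p = 0.0101). Steap1, a metalloreductase gene, fell from 40 and 30 reads to 2 and 2 (edgeR adjusted p = 0.00455), and Sulf1, a heparan sulfatase, fell by 1.03 (edgeR adjusted p = 0.0165). Most of the calls were lost without either control library. The median was 0.43 without the first knockout library (30 genes tested) and -0.18 without the second (29 tested). Ependymal cells, which line the ventricle beside the plexus, were followed with 10 tested genes. By edgeR, DESeq2 and limma-voom 0 of them were higher or lower, with 3 lower at an unadjusted p under 0.05 by edgeR. Their median log2 fold change was -0.81 with all 4 libraries and -1.17 without the first knockout library. Their summed level was 24.0 and 35.6 CPM in the control libraries, 25.1 CPM in the first knockout and 17.5 CPM in the second, and 0 of the 10 were highest in the second knockout.

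Endothelial genes, from the inner lining of the same vessels, were set beside the mural genes. Of 12 tested, 4 were higher and 1 lower in the knockout, with a median log2 fold change of 0.47, and 0 were at least 2-fold above the highest other library in the second knockout. With that library left out 3 were higher and 3 lower, with a median of 0.24. The median was 0.64 without the first knockout library, 0.46 without the first control and 0.45 without the second. Without either control some of the higher calls were lost. Ly6c1 rose by 0.88 (edgeR adjusted p = 0.00359) and the adhesion molecule gene Pecam1 rose by 1.05 (edgeR adjusted p = 0.00525), whereas Flt1, a VEGF receptor, fell by 0.86 (edgeR adjusted p = 0.00491). The summed level of the 12 was 368 and 359 CPM in the control libraries and 427 and 509 CPM in the knockout libraries, a narrower range than that of the smooth muscle genes. Whether tissue beside the hippocampus has a part in the genotype calls of the members was not tested.

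Outside the lists, the 5 genes with the largest ratio of the second knockout to the highest other library, among genes with a mean of at least 1 CPM, were Prg4, Slc6a12, Lox, Cytl1 and Cyp1b1. Prg4, which encodes the lubricating proteoglycan lubricin, gave 3 and 7 reads in the controls, 14 in the first knockout and 210 in the second, a ratio of 18.7. Slc6a12, a betaine and GABA transporter, gave 19, 15, 18 and 169 reads in the same order. Slc6a13 shares 0.183% of its 50-base windows with Slc6a12. Lox, which crosslinks collagen and elastin, gave 9, 7, 13 and 103 reads, Cytl1, a secreted protein gene, 25, 30, 31 and 240 reads, and Cyp1b1, a cytochrome P450 gene, 119, 127, 140 and 793 reads. All 5 are named for this ratio alone, with edgeR adjusted p from 0.179 to 0.278 between genotypes.

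Few of the 38 genes could share reads with other genes. The exons of Tagln overlap Pcsk7 by 65 bases, those of Des overlap Gm15179 by 220 bases and those of Ttr overlap Gm16090 by 11 bases, each on the opposite strand, and those of Prlr overlap Agxt2 by 155 bases (GENCODE vM1, mm9). No label states whether counting used strand, so reads in the opposite-strand stretches could come from either gene. Prlr and Agxt2 lie on the same strand, so strand would not tell their reads apart. Reads tallied as ambiguous, 0.270% to 0.303% of entries, were counted for no gene, so an overlap could also lower a member's count. At most 1.04% of the 50-base windows of any member's longest coding transcript were found in a transcript of another protein-coding gene, the largest share being that of Tagln with Pcsk7.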

How the data were processed

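Per the labels' protocols, total RNA of hippocampus was sequenced as single-end reads of 50 bp. The submitters' processing notes name TopHat2 2.0.8b, HTSeq and the build mm9. The deposited files hold raw counts per gene symbol. Their 5 tally rows, 45.2% to 47.3% of entries, were left out. The sources used here do not give the counting strand or annotation.

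Groups come from the sample titles, with 2 libraries each. CPM used TMM factors. Genes kept by filterByExpr (minimum count 10, total 15) were tested with edgeR 4.0.16 in R 4.3.3 (glmQLFit, legacy=FALSE, robust; glmQLFTest), adjusted over all tested genes, threshold 0.05. SE was taken as |log2 fold change|/√F. The fit was tested on simulated data. Alternatives used limma 3.58.1, DESeq2 1.42.0 and other settings given in the closing section.

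The 38 genes and all lists were chosen with earlier results of these data known. Named with all values are genes past the threshold and, per group, the 2 most abundant and the 2 with the largest second knockout ratio; others were added for completeness or, in the lists, by the 2 smallest p in each direction. Coordinates are from GENCODE vM1 on NCBIM37 (mm9), promoters from RefSeq on GRCm38.p6.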

Additional observations from a re-analysis of the deposited data

How the results depend on the processing

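The count of 5 genes called higher was 5 or 6 with RLE or upper-quartile factors, a stricter filter and legacy estimation, 3 with no filter on low counts, 8 without robust estimation, 9 with DESeq2 and 3 with limma-voom. Leaving out a library gave 0 to 23 genes called higher, 0 to 1 called lower, and 813 to 4821 genes called in all, against 3061 with all 4 libraries; the 0 came without either control and the 23 without the first knockout. Without the second knockout library the sign turned for 9 of the 34 tested genes: Dcn (-0.068), Vtn (-0.10), Slc13a4 (-0.21), Lum (-0.34), Ogn (-0.42), Serpinf1 (-0.50), Aldh1a2 (-0.60), Slc6a13 (-0.045) and Slc22a6 (-0.76). For the first 3, over the 4 omissions their log2 fold changes ran from -0.068 to 0.60 (Dcn), -0.10 to 0.92 (Vtn) and -0.21 to 3.85 (Slc13a4). The count of 16 genes at least 2-fold above in the second knockout was 16 under every scaling tried and above the mean of the other libraries, and 19 at 1.5-fold. No label states that the replicate numbers pair the libraries. The deviations of the first libraries from their group means correlated at -0.0165 across 15011 genes, which cannot exclude a pairing that affects few genes. With the replicate number as a block, 3194 genes were called, 6 of the members higher and 1 lower (Prlr), with Ttr not among them (edgeR adjusted p = 0.0954) and Cnn1 (0.00592) and Des among them. Depth limits Slc47a1, Slc4a5 and Tmem72, each with 3 or fewer reads in at least 1 library.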
